A study of Homo sapiens with 6 samples.

Results

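The genes described here are 10 long genes, most of them known for work in neurons, that had more bases under R-loop peaks in senescent than in proliferating fibroblasts: CELF4, KIF1A, CDH23, RBFOX3, LINGO1, DYSF, SHANK2, RASGEF1A, ADGRB1 and PPP2R2C. They are 10 of 19817 protein-coding genes. They were chosen by their covered bases in the proliferating and senescent libraries, so that difference is given as a description without a test. R-loop peaks were mapped in IMR90, a human lung fibroblast line of embryonic origin of wild-type genotype, kept at 2% oxygen. The proliferating cells carried a control vector, the senescent cells expressed oncogenic Ras ectopically, and the quiescent cells were starved. The assay was MapR, which directs a micrococcal nuclease to RNA-DNA hybrids through an RNase H part (RH-MNase) and releases the chromatin there. The series has 6 libraries, of which the 3 made with RH-MNase were used, and the 3 GST-MNase background libraries are not analysed here. Each state has 1 library, so no difference below has a replicate check.

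An R-loop forms when RNA pairs with its DNA template and leaves the opposite DNA strand unpaired, usually during or after transcription. Such structures are best known at the starts and ends of active genes and on GC-rich DNA. CELF4 and RBFOX3 encode RNA-binding proteins of neurons, KIF1A a motor for axonal vesicles, SHANK2 a scaffold of excitatory synapses, LINGO1 a partner of the Nogo receptor, and ADGRB1 an adhesion G protein-coupled receptor. The label neural fits some members only loosely: CDH23 is a cadherin of the hair cell tip link, DYSF is best known for repair of the muscle membrane, RASGEF1A encodes a guanine nucleotide exchange factor, and PPP2R2C encodes a regulatory subunit of protein phosphatase 2A that is known from brain. Peaks do not measure RNA, so whether any of these genes was transcribed was not measured, and the fibroblast label cannot be checked against marker genes here.

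The proliferating list held 101802 peaks over 85.4 Mb, the senescent list 85564 over 54.1 Mb and the quiescent list 9736 over 4.12 Mb. Read depth is unknown. The score of a peak is the authors' own, on a scale not given in the sources used here, and is used only to rank peaks within a list. Each locus runs from 1000 bp before the gene to 1000 bp after it in the RefSeq annotation of GRCh38, and covered bases are the bases of a locus under peaks. A senescent peak is called shared when it overlaps a proliferating peak by at least 1 bp, and otherwise new.

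RefSeq (GRCh38.p14) windows of 300 bases, from 250 before to 50 after a transcript start, were found for 7 of the 10 genes, 34 windows in all, some of which overlap. Of these 34, 7 touched a proliferating peak, 5 a senescent peak and 0 a quiescent peak. Over all 22131 windows of protein-coding genes the shares were 68.1%, 51.5% and 16.2%. RBFOX3 and LINGO1 supply 21 of the 34 windows. By window, the counts of 7 and 5 of 34 thus lie below the shares over all windows. Counted by gene, 4 of the 7 had a window with a proliferating peak and 5 had one with a senescent peak. The shares were 71.6% and 56% of the 15811 protein-coding genes in the table. The 7 genes hold 34 windows where the 15811 hold 22131, so each of the 7 has more chances to be counted. The counts by gene are therefore not read against these shares. Every one of the 34 holds 4 G in a row (GGGG) on one strand or the other, as do 93.5% of all windows. The 12 windows of RBFOX3 and the single window of CELF4 touched no peak in any list. The 6 windows below are shown because they span the cases seen: new, shared, proliferating only and none. Capitals in the first 4 mark bases under a senescent peak, and capitals in the fifth mark bases under a proliferating peak. The CELF4 window has no capitals because no peak reached it. All are written 5′ to 3′ on the strand of the gene.
LINGO1 internal start, chr15:77696099-77696398, minus strand: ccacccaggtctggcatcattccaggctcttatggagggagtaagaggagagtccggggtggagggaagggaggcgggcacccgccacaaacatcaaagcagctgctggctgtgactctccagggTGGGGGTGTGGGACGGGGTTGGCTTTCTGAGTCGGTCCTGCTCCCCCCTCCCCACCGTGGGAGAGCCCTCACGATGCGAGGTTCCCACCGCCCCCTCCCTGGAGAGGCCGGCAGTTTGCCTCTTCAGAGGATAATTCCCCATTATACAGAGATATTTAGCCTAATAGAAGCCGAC
PPP2R2C internal start, chr4:6381819-6382118, minus strand: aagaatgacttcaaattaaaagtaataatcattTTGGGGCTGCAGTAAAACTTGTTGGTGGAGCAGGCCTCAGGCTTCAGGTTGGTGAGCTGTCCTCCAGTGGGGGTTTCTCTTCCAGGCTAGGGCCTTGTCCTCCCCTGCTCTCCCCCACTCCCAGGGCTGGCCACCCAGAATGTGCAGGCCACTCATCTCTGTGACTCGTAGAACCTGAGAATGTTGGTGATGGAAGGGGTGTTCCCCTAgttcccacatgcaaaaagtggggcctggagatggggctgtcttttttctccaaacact
KIF1A, chr2:240820990-240821289, minus strand: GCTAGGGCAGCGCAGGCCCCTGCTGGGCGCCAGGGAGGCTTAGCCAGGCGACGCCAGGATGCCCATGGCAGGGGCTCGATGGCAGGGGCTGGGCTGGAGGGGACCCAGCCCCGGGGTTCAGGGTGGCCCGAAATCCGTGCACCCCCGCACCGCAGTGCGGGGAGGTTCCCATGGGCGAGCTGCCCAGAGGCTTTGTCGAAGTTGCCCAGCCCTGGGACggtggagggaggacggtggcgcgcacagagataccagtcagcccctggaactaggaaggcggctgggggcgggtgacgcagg
DYSF, chr2:71453311-71453610, plus strand: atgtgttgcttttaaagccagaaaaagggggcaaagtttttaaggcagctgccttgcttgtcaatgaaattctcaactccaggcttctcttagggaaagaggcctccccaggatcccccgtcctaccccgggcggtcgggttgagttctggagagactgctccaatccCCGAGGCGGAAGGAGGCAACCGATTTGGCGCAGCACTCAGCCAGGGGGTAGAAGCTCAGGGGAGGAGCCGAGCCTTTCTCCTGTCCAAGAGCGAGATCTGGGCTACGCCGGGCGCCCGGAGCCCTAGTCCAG
LINGO1 start near the gene end, chr15:77820283-77820582, minus strand: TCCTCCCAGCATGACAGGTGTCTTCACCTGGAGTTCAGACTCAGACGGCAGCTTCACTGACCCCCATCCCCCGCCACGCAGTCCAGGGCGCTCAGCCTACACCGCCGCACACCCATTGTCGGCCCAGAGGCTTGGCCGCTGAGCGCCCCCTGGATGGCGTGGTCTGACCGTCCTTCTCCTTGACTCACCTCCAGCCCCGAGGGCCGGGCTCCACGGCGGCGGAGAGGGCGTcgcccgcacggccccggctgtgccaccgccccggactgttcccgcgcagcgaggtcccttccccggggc
CELF4, chr18:37485743-37486042, minus strand: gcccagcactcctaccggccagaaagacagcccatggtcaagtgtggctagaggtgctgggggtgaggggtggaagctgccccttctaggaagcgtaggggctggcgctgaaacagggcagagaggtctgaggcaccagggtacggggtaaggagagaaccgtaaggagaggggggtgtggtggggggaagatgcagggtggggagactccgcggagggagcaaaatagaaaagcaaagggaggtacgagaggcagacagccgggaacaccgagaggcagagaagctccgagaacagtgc

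The windows of LINGO1 and PPP2R2C at internal starts are the ones touched by new senescent peaks. The PPP2R2C peak, chr4:6381877-6382085, lies wholly inside its window, is 209 bp wide and has a score of 15. Its window is 52.3% G and C with 1 CpG, against a median of 62.3% and 21 CpG over all windows, and 65.7% and 26 over windows with a senescent peak. The other LINGO1 window printed above is 71% G and C, and 231 of its bases lay under a proliferating peak of 1243 bp. The same peak covered all 300 bases of the window that spans the end of the gene, chr15:77820851-77821150, which is 56% G and C. The senescent peak that overlaps that proliferating peak is 229 bp wide and lies 464 bp outside the gene. KIF1A and DYSF had shared peaks over their windows, 227 bp and 378 bp wide in senescent cells. The PPP2R2C window at the outer start of the gene, at 85.3% G and C with 59 CpG, had no peak in any list.

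Together the 10 loci span 3.08 Mb. They held 248 proliferating, 450 senescent and 9 quiescent peaks, which covered 129 kb, 255 kb and 3.09 kb. All 10 had more covered bases in senescent cells, as the choice of genes requires, where 13.3% of all protein-coding genes and 13.5% of the 4410 protein-coding genes of 72.5 to 785 kb, the range of their lengths, did. Fewer covered bases in senescent cells were found for 72.5% and 81.3% of these genes. All 10 loci held peaks of both lists, as did most loci: 83.4% of all protein-coding genes and 93% of those in the length range held a proliferating peak, and 80.3% and 91.5% a senescent peak. The ratio of senescent to proliferating covered bases ran from 1.43 in SHANK2 to 4.20 in CELF4, with a median of 2.03. By the difference in bases the 10 genes lie among the first 13 of all protein-coding genes. PPP2R2C is the last of them with 8397 bp, and the next gene below, TRABD2B, had 7668 bp. By the difference in the covered share of the locus they rank much lower, from 106 for KIF1A to 1424 for SHANK2, since a longer gene can hold more covered bases. With each list limited to its 9736 highest-scoring peaks, the length of the quiescent list, LINGO1 (-743 bp) and PPP2R2C (-674 bp) had fewer covered bases in senescent cells and the other 8 had more, where 12.3% of all protein-coding genes had more. With the peaks that reach the median score of each list all 10 had more, by 1705 bp (PPP2R2C) to 14388 bp (KIF1A), against 11.7% of protein-coding genes. The share of protein-coding genes was 15.6% with as many proliferating as senescent peaks and 30% with as many covered bases in both lists. These 2 settings remove proliferating peaks only, so no difference can fall. That all 10 had more there was fixed in advance and is no check.

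**Figure D1:**
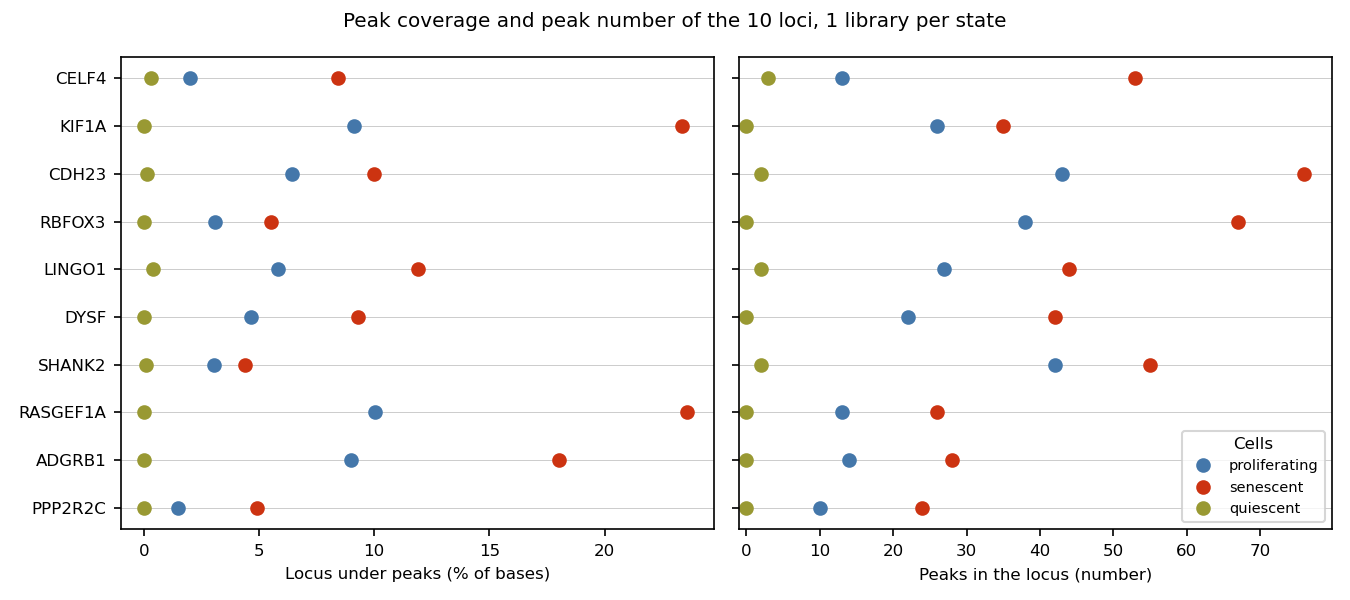
Share of each locus under peaks (left, percent of bases) and number of peaks (right) in the proliferating, senescent and quiescent library, 1 point per library. The senescent point lies right of the proliferating point in all 10 loci in both panels. The choice of genes requires this for covered bases (left) but does not by itself fix it for peak numbers (right). KIF1A and RASGEF1A reach 23.4% and 23.6% on the left.

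New peaks made up most of the difference. Of the 450 senescent peaks, 315 were new, 70% (95% Wilson interval 65.6 to 74.1, counting error only). The share was 34.3% over the whole senescent list and 32.8% in the loci of the other 4400 genes in the length range. The choice of genes favours new peaks, so nothing is read from this contrast. The new peaks added 151 kb, the 109 proliferating peaks without a senescent partner took away 35.6 kb, and the shared peaks added 11.3 kb net. By gene the share of new peaks ran from 60% in KIF1A to 84.9% in CELF4, and it was 68.0% over the 9 genes other than CELF4.

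CELF4 (chromosome 18, 37242844 to 37565798) had 13 proliferating peaks over 6528 bp, 53 senescent peaks over 27430 bp and 3 quiescent peaks over 1059 bp. Of the senescent peaks 45 were new. Their distance to the nearest proliferating peak ran from 186 bp to 58.0 kb, with a median of 15884 bp. The highest of them, chr18:37378340-37379353, scored 31, at percentile 89.8 of the senescent list, 135 kb from the nearer gene end. When the locus is divided into 10 equal stretches counted from its start, 9 had more covered bases in senescent cells, and the seventh had the largest difference, from 213 to 4508 bp. The second to the fifth stretch held no proliferating peak and between 786 and 2261 bp under senescent peaks.

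RBFOX3 (chromosome 17, 79089345 to 79665571), which encodes the neuronal marker protein NeuN, had 38 proliferating peaks over 17985 bp, 67 senescent peaks over 31901 bp and no quiescent peak. Its 48 new peaks had a median width of 355 bp, against 346 bp for new peaks over the whole senescent list. Their median percentile was 20.6, as in RASGEF1A, against 33.7 for new peaks over that list. The highest senescent peak of RBFOX3, chr17:79201916-79202680 with a score of 48 at percentile 99.1, was a shared one.

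KIF1A (chromosome 2, 240713767 to 240821403) had 26 proliferating peaks over 10003 bp and 35 senescent peaks over 25616 bp, and none in quiescent cells. Its 21 new peaks lay at a median of 798 bp from proliferating ones, against 15884 bp in CELF4. Proliferating peaks were also denser in KIF1A, with 26 in a gene of 108 kb against 13 in 323 kb in CELF4. The part of that density in the distances was not tested. Shared peaks of KIF1A added 5561 bp, the largest such amount among the 10, and most of it came from a single peak. That peak, chr2:240745867-240750061, the widest senescent peak of the 10 loci, is 4195 bp wide and lies over 3 proliferating peaks of 984 bp together. Of the 14 shared peaks of KIF1A, 10 were wider and 4 narrower than the proliferating peaks they overlap.

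SHANK2 (chromosome 11, 70467854 to 71253234) is the longest of the 10. It had 42 proliferating peaks over 24125 bp, 55 senescent peaks over 34427 bp and 2 quiescent peaks over 673 bp. New peaks added 17227 bp and lost peaks took away 6843 bp, while shared peaks moved the total by -82 bp. Its highest senescent peak, chr11:70661599-70663388 with a score of 47 at percentile 98.9 of its list, overlaps the highest proliferating peak of the locus. That proliferating peak scored 61, at percentile 95.4 of its own list.

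LINGO1 (chromosome 15, 77613027 to 77820900) had 27 proliferating peaks over 12218 bp, 44 senescent peaks over 24981 bp and 2 quiescent peaks over 819 bp. Of its 33 new peaks, 5 lie in the antisense lncRNA gene LINGO1-AS1 and 2 in LINGO1-AS2. The peaks carry no strand, so sense and antisense cannot be told apart. ADGRB1 (chromosome 8, 142449649 to 142545007) had 14 peaks over 8743 bp, 28 over 17561 bp and none. In 2 of its 10 stretches covered bases were lower in senescent cells, and both lie in the part with low coordinates. Its highest new peak, at 142525140 to 142526271, is 1132 bp wide and scored 27.

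CDH23 (chromosome 10, 71396920 to 71815947) had the most peaks, 43 in proliferating cells over 27114 bp, 76 in senescent cells over 42051 bp and 2 in quiescent cells over 540 bp. Its 51 new peaks added 24099 bp, but its shared peaks moved the total by -3270 bp. The second stretch from the start went from 778 to 6129 bp, whereas the ninth went from 9709 to 6170 bp. The gene overlaps C10orf105 and VSIR, other protein-coding genes, which hold 3 and 1 of its new peaks and 4 and 8 of its proliferating peaks. The 1000 bp after the gene also reach into PSAP, with 0 peaks there. Over all 10 genes 4 of the 315 new peaks lie in another protein-coding gene, all in CDH23.

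DYSF (chromosome 2, 71453561 to 71686763) had 22 peaks over 10923 bp in proliferating cells, 42 over 21838 bp in senescent cells and none in quiescent cells. Its widest senescent peak, chr2:71585792-71587083, is new, is 1292 bp wide and scored 31. RASGEF1A (chromosome 10, 43194535 to 43267065), the shortest of the 10, had 13 peaks over 7481 bp, 26 over 17557 bp and none. A single new peak of 2712 bp, chr10:43257281-43259992, is the widest new peak of the 10 loci. It lies 996 bp from a proliferating peak. PPP2R2C (chromosome 4, 6320581 to 6563799) had the lowest counts, 10 peaks over 3616 bp, 24 over 12013 bp and none. It also held the highest-scoring proliferating peak of the 10 loci, chr4:6327049-6327722 with a score of 81 at percentile 99.1. The senescent peak it overlapped had a score of 28, at percentile 84.6 of the senescent list.

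**Figure D2:**
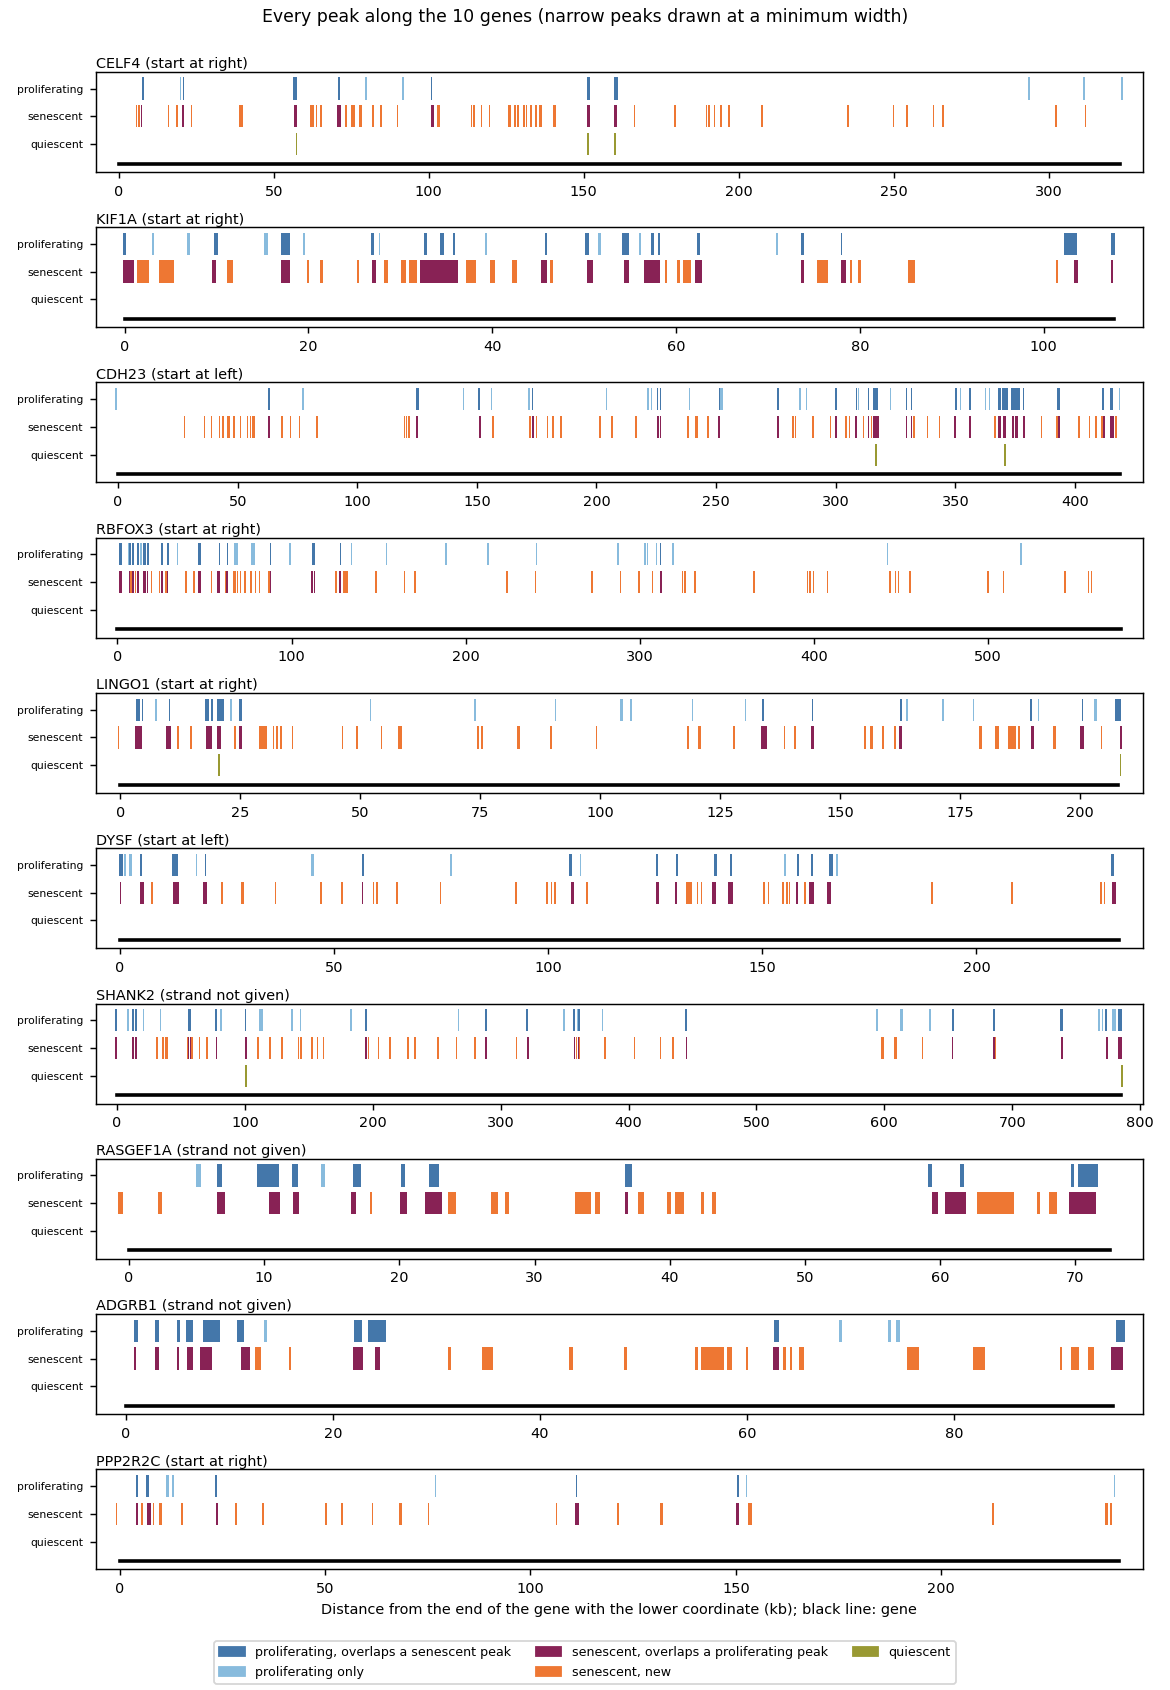
Every peak along the 10 genes, by distance in kb from the gene end with the lower coordinate, in rows for proliferating, senescent and quiescent cells, with very narrow peaks drawn at a minimum width. New senescent peaks, in orange, lie along the bodies of the genes, and the 9 quiescent peaks all sit under peaks of the other lists.

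Most new peaks lay in the bodies of the genes. They are the covered bases that the genes were chosen for, so their positions are a description. Of the 315 new peaks, 3 (0.952%, 0.324 to 2.76) lay within 1000 bp of an end of their gene, in LINGO1, RASGEF1A and PPP2R2C. The windows around the ends make up 1.30% of the loci, a share within that interval. Of the 135 shared senescent peaks, 9 (6.67%, 3.55 to 12.2) lay there. In the loci of the other 4400 genes in the length range the end shares were 3.72% of new and 24.4% of shared peaks, with windows that make up 2.15% of those loci. The median distance to the nearer gene end was 66.4 kb for new and 42.6 kb for shared peaks, and 287 new peaks, 91.1%, lay over 10 kb inside. Peaks of a locus share a gene and a library and are not independent, so the intervals cover counting error only. With no flank no new peak lay at an end, and within 3000 bp of one lay 2.86%.

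At the gene ends themselves fewer genes had a senescent than a proliferating peak. A peak within 1000 bp of a gene end was found for all 10 genes in proliferating cells, for 7 in senescent cells and for 2, LINGO1 and SHANK2, in quiescent cells. Among all protein-coding genes the shares were 75.9%, 70.3% and 27.7%, and in the length range 79.8%, 74.1% and 30.2%. The senescent count of 7 of 10 is near these shares, which also fall from the proliferating to the senescent list. CELF4, CDH23 and RBFOX3 were the ones without such a peak in senescent cells. For RBFOX3 this rests on the limit of 1000 bp: its proliferating peak lies 996 bp from the end, and the senescent peak that overlaps it lies 1088 bp from it. In the 7 genes whose strand the promoter table gives, the stretch nearest the start had fewer covered bases in senescent cells in 4 (CELF4, KIF1A, LINGO1 and DYSF) and more in 3, while the last stretch had more in all 7. Over all stretches but the first, 55 of 63 had more, so the last stands near the rest. Of their 245 new peaks, 106 lay nearer the start and 139 (56.7%) nearer the other end of the gene. The same counts were not made in other genes, and the 10 genes were chosen for more covered bases in senescent cells. Whether the first stretch or the split of new peaks sets these genes apart was therefore not tested.

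New peaks ranked lower in score and were narrower than shared ones. Their median percentile within the senescent list was 33.7 (quartiles 14.0 and 51.5), against 56.8 (27.2 and 78.2) for shared peaks, and their median width 379 bp against 660 bp. Over the whole senescent list the corresponding values were 33.7 and 61.5 for percentile and 346 and 579 bp for width, so new peaks of the 10 loci rank as new peaks do elsewhere. At or above the median score of the list lay 81 new peaks, 25.7% (21.2 to 30.8), and at or above its median width 111, 35.2% (30.2 to 40.7). These 2 shares are given without the same shares for new peaks of other loci. In the highest 10% lay 2 new and 14 shared peaks. The 2 new ones are both in CDH23, at chr10:71638164-71639230 and chr10:71468658-71468962, each with a score of 32.

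**Figure D3:**
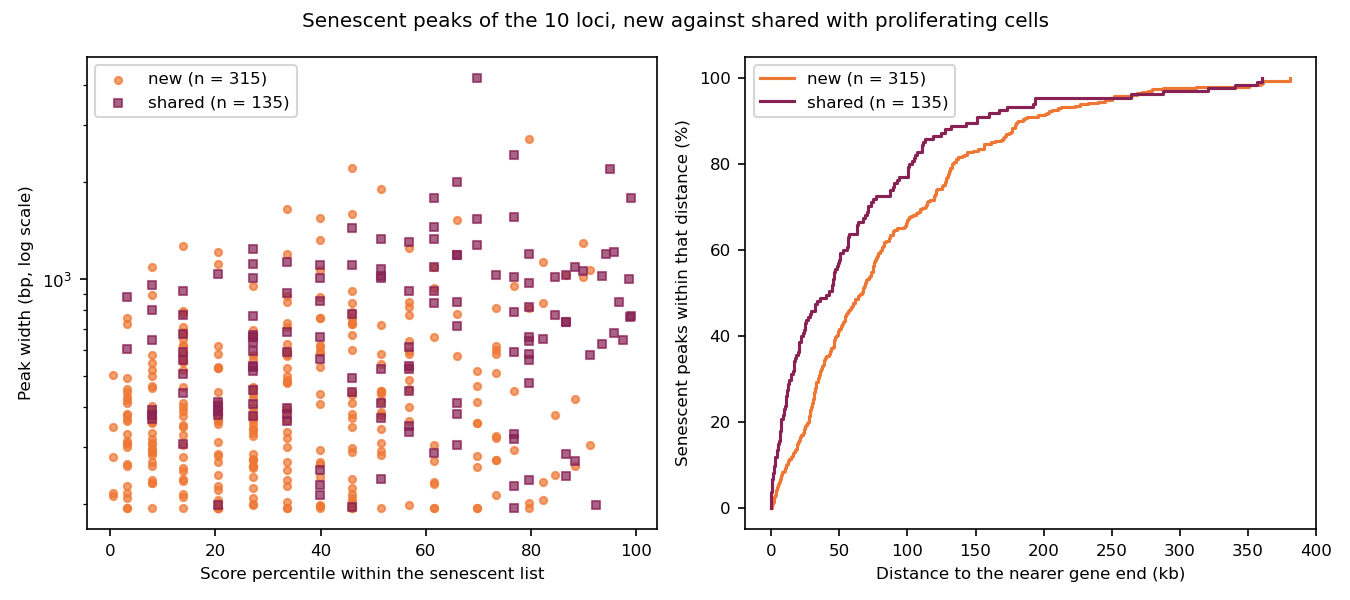
Width in bp on a log axis against score percentile within the senescent list (left), and the cumulative percent of peaks within a given distance in kb of the nearer gene end (right), for 315 new and 135 shared senescent peaks. The new peaks are narrower and lower in rank, and 0.952% of them lie within 1000 bp of an end against 6.67% of shared peaks.

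The distance of new peaks to proliferating peaks varied widely. Of the 315, 66 (21.0%) lay within 1000 bp of a proliferating peak and 126 (40%) over 5 kb from one, and the median distance was 3660 bp. In the loci of the other genes in the length range the values were 22.1%, 49.2% and 4778 bp. The extremes were the median of 798 bp in KIF1A and that of 15884 bp in CELF4, genes that also differ in how densely they hold proliferating peaks.

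In quiescent cells, whose list the choice of genes did not use, 4 of the 10 genes had a peak: CELF4 with 3 and CDH23, LINGO1 and SHANK2 with 2 each. The share was 34.4% among all protein-coding genes and 43.7% in the length range, so 4 of 10 is near the background, and with peaks at or above the median score it was 2. All 9 quiescent peaks overlapped a shared senescent peak, and none overlapped a new one. Of all 8054 quiescent peaks in protein-coding loci 99.6% overlapped a proliferating and 94.7% a senescent peak, so overlap was common throughout the list. Only 11 of the 8054 (0.137%) overlapped a senescent but no proliferating peak, so none among 9 is near that share. Where an overlap had to span 50% of both peaks, 22.2% of the 9 overlapped a senescent peak. The highest quiescent scores were 39, for 2 peaks of CELF4 at chr18:37299870-37300071 and chr18:37402771-37403279, both at percentile 95.5. The quiescent list is far shorter than the other lists, and whether the new sites lack signal in quiescent cells or lie below its threshold cannot be told apart.

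To see whether the difference stops at the gene, each locus was set beside 2 flanks of its own length. The flanks had more covered bases in senescent cells for 3 genes and fewer for 7, where 14.5% of all protein-coding genes and 10.7% in the length range had more. CELF4 stands in an empty stretch, with 515 bp covered in its flanks in proliferating and 0 bp in senescent cells. RBFOX3 had 129833 bp in its flanks in proliferating and 76444 bp in senescent cells, while its own locus had 13916 bp more. SHANK2 and PPP2R2C had flanks of 101937 and 29978 bp in proliferating and 79610 and 19376 bp in senescent cells. In KIF1A the flanks went from 32766 to 39294 bp, and among protein-coding genes that reach into them MAB21L4 had the largest difference, 1804 and 4726 bp over its whole locus. MAB21L4 lies in the flank of KIF1A with higher coordinates, which went from 24181 to 24808 bp. The flank of KIF1A with lower coordinates went from 8585 to 14486 bp. The flanks of DYSF went from 21431 to 32723 bp and those of ADGRB1 from 16707 to 30256 bp. In these 2 the flanks had a larger difference than the gene itself. In the flank with higher coordinates, covered bases went from 16774 to 29401 bp for DYSF and from 14102 to 26515 bp for ADGRB1. In the other flank they went from 4657 to 3322 bp and from 2605 to 3741 bp. Among protein-coding genes that reach into the flanks of DYSF, the largest differences were -1096 bp in PAIP2B and -1204 bp in ZNF638. For ADGRB1 they were 3073 bp in TSNARE1 and 72 bp in ARC. These are values of whole loci, which may lie only partly in the flanks. PAIP2B, ZNF638 and TSNARE1 lie on the side with lower coordinates and ARC on the other. With the proliferating list limited by score to as many covered bases as the senescent list, the flanks of 8 genes had more covered bases in senescent cells, against 38.3% over all protein-coding genes. That setting removes proliferating peaks only, so neither value could fall.

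**Figure D4:**
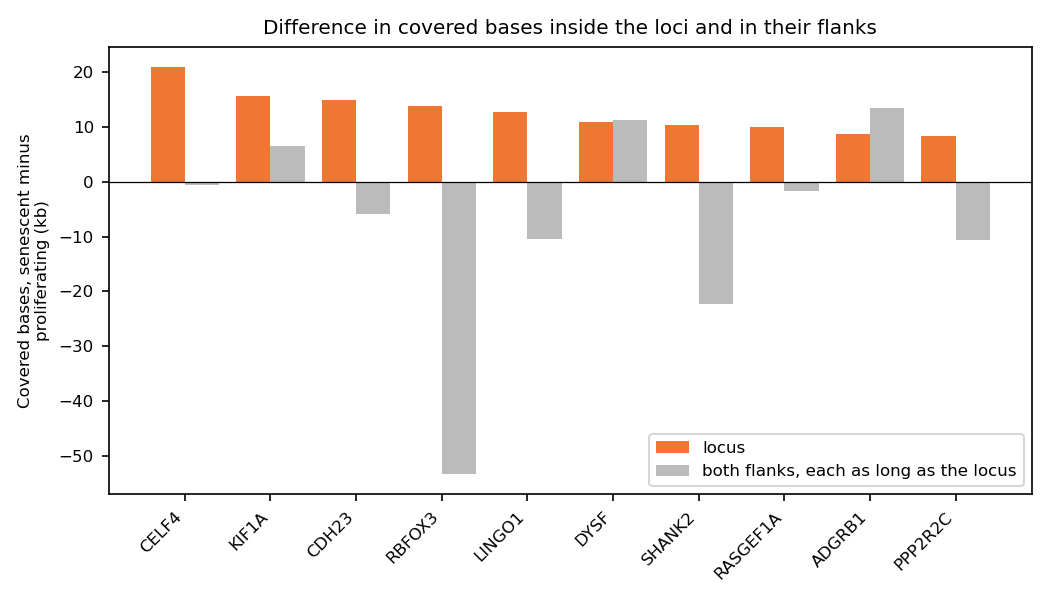
Covered bases in kb, senescent minus proliferating, in each locus (orange) and in its 2 flanks together (grey), each flank as long as the locus. The bars of the loci are all above 0 by choice of the genes, and the flank bars are above 0 in KIF1A, DYSF and ADGRB1 only.

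Most related genes had fewer covered bases in senescent cells, as did 72.5% of all protein-coding genes and 81.3% of those in the length range. Of 27 relatives of the 10 genes, 7 (25.9%, against 13.3% of all protein-coding genes) had more covered bases in senescent cells, 18 fewer and 2, PCDH15 and LINGO2, had no peak in either list, with a median difference of -753 bp against -721 bp for all protein-coding genes and -1393.5 bp in the length range. Those with more were CELF3, CDHR1, OTOF, FER1L5, RASGEF1C, ADGRB2 and PPP2R2B. FER1L5, a ferlin like DYSF, had 3844 and 6762 bp, and CDHR1, a photoreceptor cadherin, had 0 and 2878 bp. MYOF, the ferlin known from myoblast fusion, had 21659 bp in proliferating and 6086 bp in senescent cells. RBFOX2, the relative of RBFOX3 found in many tissues, had 24220 and 9164 bp. CELF2 had 13017 and 6005 bp, and KIF1B 6074 and 2428 bp. SHANK1 had 6181 and 2625 bp and SHANK3 7990 and 4716 bp.

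**Figure D5:**
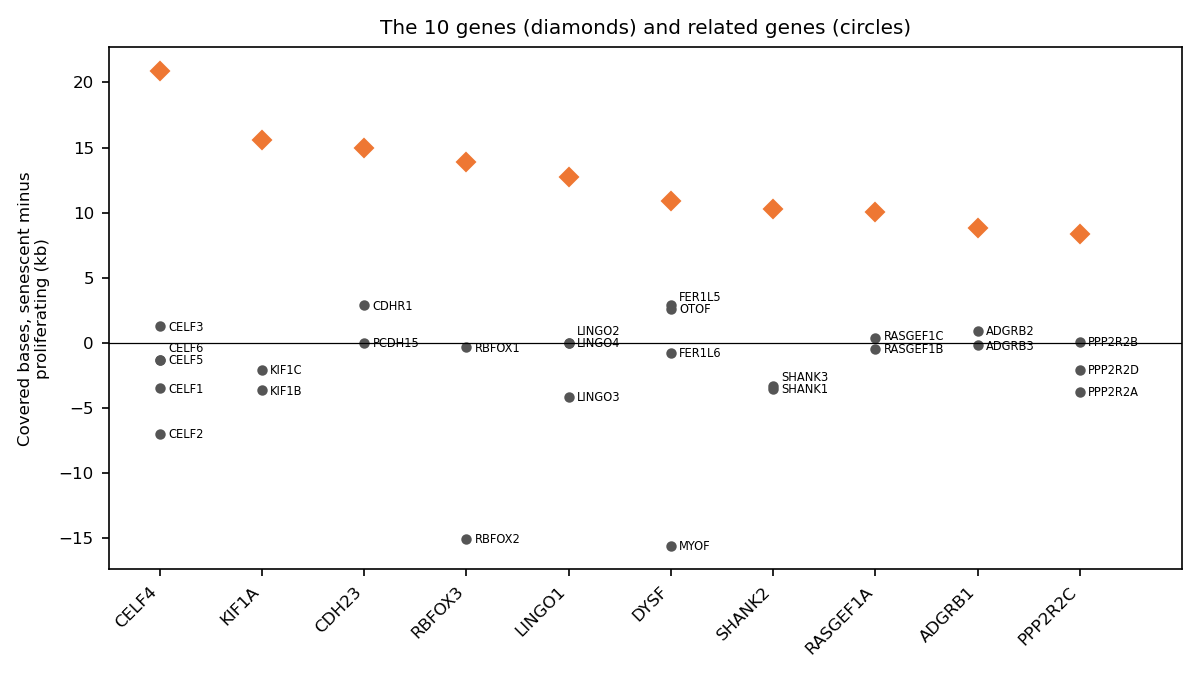
Covered bases in kb, senescent minus proliferating, for the 10 genes (diamonds) and 27 related genes (circles) named beside the points. The 10 genes were chosen for a large difference, so the place of all 27 circles below the diamond of their column is a description. The lowest circles are MYOF and RBFOX2.

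Other genes of neurons and of the tissues named above were counted from lists of 12 to 27 genes. Among 26 presynaptic and axonal transport genes 8 had more covered bases in senescent cells and 18 fewer, with a median difference of -1130.5 bp. NRXN2, a presynaptic adhesion gene, had 11913 and 15245 bp, and SYN3, a synapsin gene, 38023 and 22533 bp. Of 27 postsynaptic genes 6 had more and 19 fewer. GRM4, a glutamate receptor gene, had 10650 and 15687 bp, CAMK2B, a kinase subunit of synapses, 21277 and 25505 bp, and DLGAP1, a partner of the SHANK scaffold, 25536 and 11868 bp. Of 23 Nogo receptor, axon guidance and adhesion genes 11 had more and 10 fewer, with a median of 0 bp. NTN1, the guidance cue netrin, had 5530 and 11324 bp, and PLXNA4, a semaphorin receptor subunit, 2506 and 7498 bp. The largest losses of that list were in RTN4RL1, with 12710 and 8899 bp, and RTN4RL2, with 6815 and 3898 bp. Of 12 hair cell genes 6 had more and 5 fewer, among them USH1C, a harmonin gene of the tip link complex, with 2426 and 7468 bp, and ESPN, an actin bundler, with 18211 and 11495 bp. Of 12 neural RNA-binding and splicing genes 1, NOVA2, had more (1529 and 1810 bp) and 9 fewer. The largest losses among them were in SRRM3, with 10806 and 5345 bp, and KHDRBS3, with 7017 and 2906 bp. Of 12 muscle membrane genes 3 had more and 8 fewer, and CAPN3, a muscle protease gene, had 1018 and 2509 bp. The largest losses of this list were in MYOF, given above, and SGCA, with 5373 and 623 bp. Over the 135 genes of all these lists, relatives included, 41 (30.4%) had more covered bases in senescent cells, against the 13.3% of all protein-coding genes. Fewer covered bases were found for 85 of the 135, against 72.5% of all protein-coding genes. With the proliferating list limited by score to as many covered bases as the senescent list, 87 of the 135 had more, against 30% of all protein-coding genes in that setting. It removes proliferating peaks only, so neither value could fall. The lists were written with earlier results of these data known, so the counts are a description of 2 libraries.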

How the data were processed

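The 10 genes and all gene lists were chosen with earlier results of these data known. MapR libraries of IMR90 cells were made with RH-MNase. Per the submitters' processing notes the authors used MACS2 2.2.7.1, Bowtie2 2.4.5 and FastQC 0.11.9 with build GRCh38. The sources used here do not give the read filters, the settings of the caller or its controls. The deposited files give a position and a score per peak, a whole number of at least 10 that was used only for ranks within a list. A percentile is the mid-rank of a score in its list.

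Genes came from RefSeq GRCh38.p14 (58415 used, 19817 protein-coding), on the assembled chromosomes 1 to 22 and X. Covered bases, overlaps and distances were computed in Python 3.11.15 with pandas 2.3.3 and tested on simulated peaks. Shares carry 95% Wilson intervals (statsmodels 0.14.6). With 1 library per state no p-value was computed. Named are the 10 genes, their relatives, up to 2 genes with the largest difference in each direction per list, overlapping genes and the 10 other genes with the largest difference. Neighbours in flanks, and peaks singled out by rank or width, were named after their values were seen.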

Additional observations from a re-analysis of the deposited data

How the results depend on the processing

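The 10 genes all had more covered bases in senescent cells with no flank or one of 5000 bp, and with the upper part of each list by score (at least its median). They also did with as many proliferating as senescent peaks, and with 40460 proliferating peaks of the covered length of the senescent list. These last 2 settings remove proliferating peaks only. Differences, shares of new peaks and counts of flanks or genes with more can then only stay or rise, so they are no check. In the upper part the differences were smaller, 1705 to 14388 bp, among them CELF4 (5147 bp) and RBFOX3 (3692 bp). With the 9736 highest peaks of each list 8 had more, and LINGO1 (-743 bp) and PPP2R2C (-674 bp) had fewer; the cause was not tested. The share of new peaks was 75.5% in the upper part by score, 76.2% with equal numbers, 92.2% at equal covered length, 84.4% where shared peaks had to overlap by 50% of both, and 55.3% where a proliferating peak within 1000 bp counted as shared. New peaks at a gene end made up 0% with no flank, since the 3 lie outside the genes, and 2.86% with a window of 3000 bp. The share of new peaks that reached the median score of the list was 40.8% with that median taken again in the upper part, 31.08% at equal covered length and 31.05% with the 50% overlap, and the share at or above the median width 42.2% and 41.05% in the last 2 settings. Genes with a quiescent peak numbered 2 in the upper part, and 22.2% of quiescent peaks in the loci overlapped a senescent peak by 50% of both. At equal covered length flanks had more covered bases in senescent cells for 8 genes, and 87 genes of the lists did, against 38.3% of flanks and 30% of all protein-coding genes. Of 45 alternatives for these values 29 stayed within the interval or within 1.5 times of the value reported; of 60 for the differences of single genes 35 did, 23 moved further and 2 changed sign. No paired analysis was possible because each state has 1 library. Read depth is unknown.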

Other observations

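Outside the 10 genes, the largest differences in covered bases belonged to genes of other kinds too. CACNA2D2, a calcium channel subunit gene, had 21089 bp under proliferating and 33552 bp under senescent peaks, and KCNT1, a potassium channel gene, had 8158 and 18001 bp. SLC25A48, a mitochondrial carrier gene, had 7380 and 16933 bp. TRABD2B, whose product is known to cleave Wnt proteins, had 528 and 8196 bp, and TP73, a relative of p53, had 13641 and 21262 bp. ASPG and KIF26A, both on chromosome 14, had 1683 and 9282 bp and 818 and 8415 bp. HMCN2, DSCAML1 and PDE2A completed the 10, with differences of 7367, 7246 and 7174 bp. HMCN2 alone of these 10 had bases under quiescent peaks, 596 bp. The flanks had more covered bases in senescent cells for KCNT1 (1657 bp), ASPG (4358 bp) and KIF26A (8857 bp) and fewer for the other 7. These genes were ranked by the same difference that chose the 10 genes of the report, so their values are a description.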
